A study of Homo sapiens with 8 samples.

Results

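The comparison set MT-1 cells exposed to OR21 alone against untreated MT-1 cells, 2 of the 8 arrays of the series. It was made over the 17709 of 21448 transcript probe sets that carry a gene symbol, as the OR21 array minus the control array on the log2 scale of the deposited values. MT-1 is an established line of adult T cell leukaemia (ATL), a cancer of mature T cells caused by the retrovirus HTLV-1. OR21 is a DNA demethylating agent, and it was given at 500 nM for 96 h, added at seeding and again at 48 h. The other MT-1 arrays held cells given 2500 nM EPZ-6438, a drug also called tazemetostat that blocks EZH2, a histone-methylating enzyme, with no OR21, and cells given both compounds at these doses. In MT-2, an HTLV-1 infected T cell line, OR21 was used at 100 nM, so its values stand beside those of MT-1 without a comparison of size. All cells grew in RPMI-1640 with fetal bovine serum. Each group had 1 array, so no difference has a replicate error, nothing was tested, and the sizes below describe these arrays.

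DNA methylation at CpG sites (a C followed by a G) is copied to the new strand after replication by DNMT1, and methylated CpGs in a promoter go with a silent gene. An agent that blocks this copying lets methylation thin out as cells divide. Cancer-testis genes, which are active in the germ line and methylated in most other tissues, are the textbook group that comes on under such agents. Responses to virus-like RNA, p53 targets and genes silenced in the tumour are other groups often followed.

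The untreated MT-1 array carried signal for some T cell genes and not for others. Of 15 T cell markers, 8 stood above background on both the control and the OR21 array, among them CD5 (12.76 and 12.29 on the log2 scale), CD28 (12.80 and 11.42) and PTPRC (10.62 and 10.70). The receptor subunits CD3D, CD3E and CD3G, the coreceptor CD4, CD2, the kinase LCK and BCL11B did not. Background was set for each array at the 95th percentile of its 612 negative controls, 7.46 on the control array and 7.29 on the OR21 array. Of markers of other cell types, 0 of 6 B cell markers stood above background on the control array and 2 of 6 on the OR21 array, BLK and CD79B, the latter only just above it (7.2998 against 7.2948). The counts were 1 of 6 epithelial, 1 of 6 myeloid, 1 of 4 NK and 0 of 5 endothelial and fibroblast markers on both arrays, and 0 of 4 erythroid markers untreated and 1 of 4 with OR21.

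With OR21 alone the largest differences were positive, and genes were found past 1 log2 unit in both directions. A probe set was measured where it stood above background on both arrays, or on 1 array with a signal that also exceeded the background level of the other, which held for 8218 probe sets. Of these, 226 were higher by 1 log2 unit (a doubling) or more with OR21, 2.75% of those measured, and 321 were lower by as much, 3.91%. Where only 1 array stood above background, the background level of the other array stood in for its signal. Such values are bounds, marked "at least" when positive and "or lower" when negative. By that rule 97 of the 226 came above background only with OR21, and 25 of the 321 dropped below it. Among the 7556 probe sets above background on both arrays, 129 (1.71%) were higher and 296 (3.92%) lower, and 14 and 11 reached 2 log2 units. The median difference of these 7556 was -0.13, with the middle of them between -0.42 and 0.15.

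The split between higher and lower turned with the scaling of the arrays. Higher probe sets made up 41.3% of those past 1 log2 unit as deposited, 22.5% with each array centred on its median (171 higher, 589 lower), 55.6% with cyclic loess (285 and 228) and 53.7% with quantile normalization (245 and 211). Centring moved the median over all named probe sets from -0.02 to -0.18. Which direction held more probe sets is therefore not settled by these arrays, and moderate negative values are read with that limit. Positive-control probe sets were counted in the same way: of 2063 above background on both, 26 were higher and 33 lower by 1 or more. Among named probe sets above background on both it was 129 and 296 of 7556. The higher share was thus only somewhat above that of the controls, and the lower share more so. How far the positive controls themselves follow gene expression was not tested, so they are no measure of noise alone. Of the 8 AFFX spikes, 6 stood above background on both arrays and none reached 1. Among the 22 negative controls above background on both arrays, 4 were higher and 1 lower by 1 or more.

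**Figure D1:**
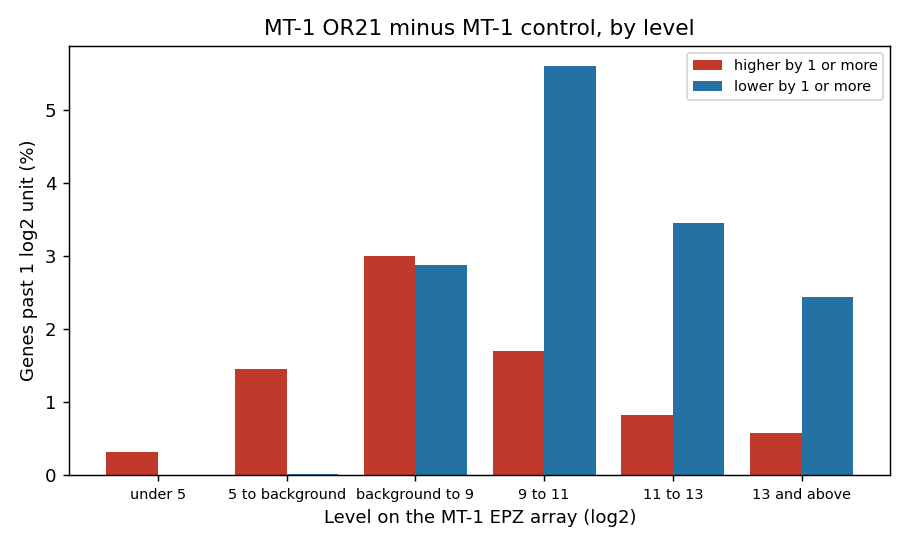
Bars give the percentage of genes higher (red) or lower (blue) by 1 log2 unit or more in MT-1 with OR21 than untreated, in bins of their level on the MT-1 EPZ array (log2), which enters neither side of the difference. Shares are of all genes in a bin, measured or not. Higher genes peak at 3.0% between background and 9, lower genes at 5.60% between 9 and 11.

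The share of genes past 1 differed with the level of expression, as the plot of shares by level shows. Level was taken from the MT-1 EPZ array so that it shared no array with the difference. Of 2501 genes between background and 9 log2 units, 3.0% were higher and 2.88% lower. Of 2926 genes between 9 and 11, 1.71% were higher and 5.60% lower, and of 862 genes at 13 and above 0.58% were higher and 2.44% lower. Below background, 17 of 5196 genes under a level of 5 were higher, and 64 of 4375 between 5 and background. These shares are of all genes in a bin, and only 28 and 311 genes of those 2 bins were measured. A gene below background can hardly count as lower, so the shares at low level depend on that rule.

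Germ line genes of the X chromosome made up most of the largest differences. SSX2B, of a family of nuclear repressor proteins normally made in testis, stood at 6.02 on the control array and 14.46 on the OR21 array, at least 7.0 higher. SSX1 went from 5.39 to 13.87 (at least 6.41). Both stood far below background without OR21, at 6.06 and 5.9 on the EPZ array, and far above it on both arrays with OR21, at 15.47 and 14.60 on the combination array. Bounds of 3.49 for SSX5 (3.71 and 10.94) and 1.07 for SSX3 (5.11 and 8.53) were smaller.

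The GAGE and XAGE genes, small cancer-testis antigens coded in clusters on the X chromosome, moved in the same way. GAGE12G stood at 4.92 untreated and 12.77 with OR21 (at least 5.31), GAGE2A at 5.81 and 12.18 (at least 4.72), and XAGE1B at 4.63 and 12.08 (at least 4.63). GAGE13, GAGE10 and GAGE1 were higher by at least 4.49, 4.26 and 3.92. XAGE2, XAGE3 and XAGE5 did not stand above background on either array, so the XAGE family did not come on as a whole. Near-identical copies share probes in the SSX, GAGE and CT45 families, so a value cannot be assigned to 1 copy.

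All 9 CT45 genes on the array came above background, a list written after the values were seen. CT45A3 stood at 6.48 untreated and 11.70 with OR21 (at least 4.24) and CT45A1 at 6.68 and 11.64 (at least 4.18), the highest of the 9, and CT45A2 had the lowest bound, at least 3.26. CT45A8 and CT45A9 carry the same values on every array. GCNA, a germ cell nuclear protein also coded on the X chromosome, stood at 7.38, just under background, and 13.60 with OR21 (at least 6.14).

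Other MAGE and PAGE genes were fewer and smaller. MAGEB2 stood at 5.30 and 10.61 (at least 3.15), PAGE5 at 6.27 and 9.77 (at least 2.31) and PAGE2B at 5.29 and 8.95 (at least 1.5). MAGEB3, MAGEB6, MAGEB10, MAGEC1 and MAGEC3 did not stand above background on either array. Of the 59 cancer-testis genes of the list on the array, 19 were higher by 1 or more, 1 was lower and 28 were not measured. The median plain difference over all 59 was 0.62, against -0.02 over all named probe sets.

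Cancer-testis genes that untreated MT-1 cells already expressed had values on both sides of 0. By the counting rule, genes above background only with OR21 can have positive values only, so a contrast between the groups is partly set by that rule. The 11 members above background on both arrays had a median difference of 0.06. MAGEA3 stood at 12.43 untreated and 11.96 with OR21, MAGEA6 at 11.45 and 11.39, PRAME at 11.28 and 11.34, and CTAG2, which encodes a close relative of the antigen NY-ESO-1, at 12.04 and 11.31. MAGEA8 alone of these was higher by 1 or more (7.93 and 9.10), and SPANXN3, a sperm protein, was lower (10.42 and 8.59, -1.83).

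**Figure D2:**
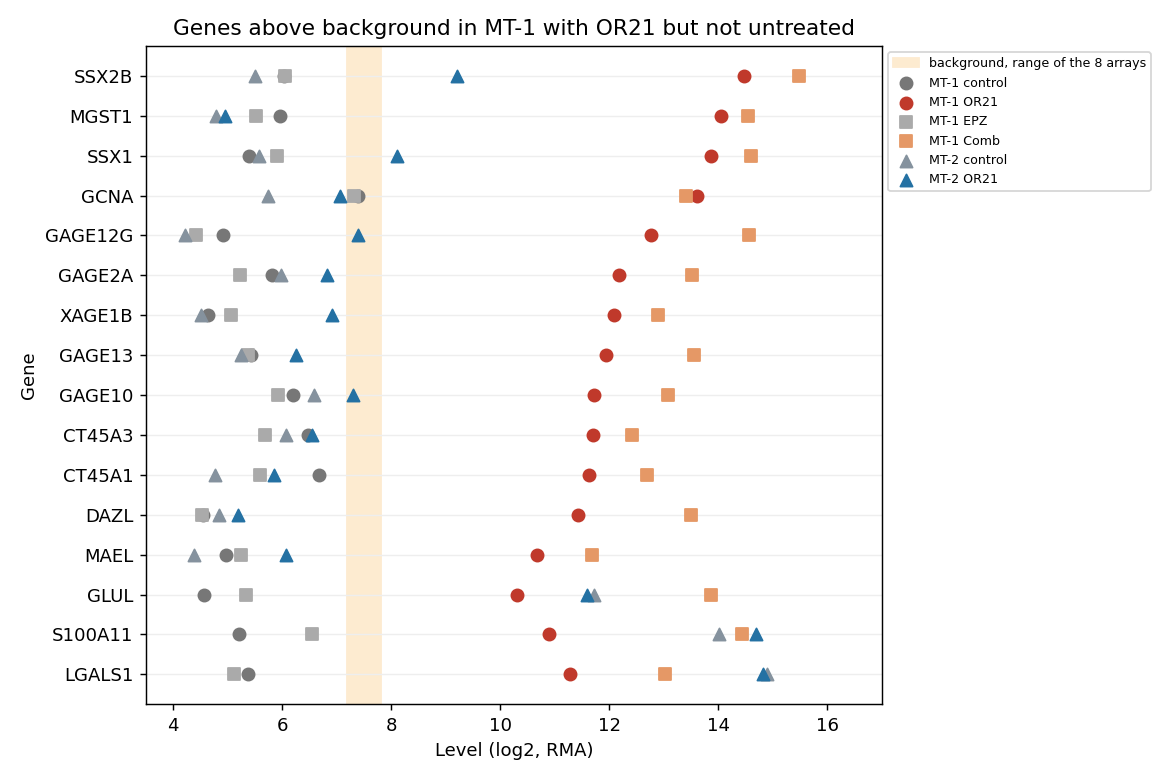
Levels (log2, RMA) of 16 genes on the 4 MT-1 arrays and on the untreated and OR21 arrays of MT-2, with the range of background over the 8 arrays shaded. In MT-1 both arrays without OR21 lie within or below the background band and both with OR21 lie above it, and GLUL, S100A11 and LGALS1 stand well above the band in untreated MT-2.

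The X chromosome held 28 of the 97 genes that came above background by 1 or more, 28.9%, against 3.60% of the genes measured and 4.01% of all named genes. Of the 28, 24 belong to the SSX, GAGE, XAGE, PAGE, CT45 and MAGE families and 4 do not. Near-identical copies share probes in the SSX, GAGE and CT45 families, so the 28 are not separate signals and the share counts some signals repeatedly. The X share was 6.20% of the higher genes above background on both arrays and 4.98% of all 321 lower genes.

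The germ cell genes outside these families were mostly silent on both arrays. Of 73 on the array, 56 were not measured and 5 were higher by 1 or more. DAZL, an RNA-binding protein of germ cells, stood at 4.55 untreated and 11.43 with OR21 (at least 3.97), and 4.52 and 13.51 on the EPZ and combination arrays. MAEL, which helps to silence transposons in germ cells, stood at 4.98 and 10.68 (at least 3.22), and SOHLH2, a transcription factor of early germ cells, at 4.42 and 9.27 (at least 1.81). TKTL1 (8.29 and 10.17) and the testis bromodomain protein BRDT (8.10 and 9.30) were already above background and were higher by 1.88 and 1.20. Most of the piRNA and meiosis machinery, such as DDX4, PIWIL1, PIWIL2, SYCP1 and SPO11, did not stand above background on either array. GTSF1, a piRNA factor, was strongly expressed throughout, at 14.65 and 14.53.

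The X-linked antigens SSX1, GAGE12G and XAGE1B, the autosomal germ cell genes DAZL and MAEL, and MGST1, the highest gene outside the germ line, show what kinds of promoter lie before the genes that came on. The sequences are the 250 bases before the first listed start of each gene in RefSeq on GRCh38.p14, with each CpG in capitals, at chrX:48255142-48255391 (plus strand) for SSX1, chrX:49570147-49570396 (plus) for GAGE12G, chrX:52517013-52517262 (minus) for XAGE1B, chr3:16605424-16605673 (minus) for DAZL, chr1:166975332-166975581 (plus) for MAEL and chr12:16347395-16347644 (plus) for MGST1.
SSX1: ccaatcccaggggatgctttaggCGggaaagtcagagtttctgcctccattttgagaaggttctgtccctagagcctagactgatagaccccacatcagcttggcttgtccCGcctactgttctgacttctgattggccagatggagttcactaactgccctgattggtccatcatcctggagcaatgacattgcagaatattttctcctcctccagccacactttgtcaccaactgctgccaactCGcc
GAGE12G: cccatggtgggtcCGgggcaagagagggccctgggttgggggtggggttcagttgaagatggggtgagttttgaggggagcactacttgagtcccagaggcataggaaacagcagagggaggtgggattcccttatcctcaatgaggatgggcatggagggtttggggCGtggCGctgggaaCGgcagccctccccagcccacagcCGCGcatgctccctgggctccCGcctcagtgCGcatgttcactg
XAGE1B: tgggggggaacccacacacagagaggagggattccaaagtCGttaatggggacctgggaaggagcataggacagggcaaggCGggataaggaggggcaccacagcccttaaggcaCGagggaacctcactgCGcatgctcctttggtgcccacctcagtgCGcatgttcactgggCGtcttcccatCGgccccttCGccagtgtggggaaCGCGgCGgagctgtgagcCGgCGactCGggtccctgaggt
DAZL: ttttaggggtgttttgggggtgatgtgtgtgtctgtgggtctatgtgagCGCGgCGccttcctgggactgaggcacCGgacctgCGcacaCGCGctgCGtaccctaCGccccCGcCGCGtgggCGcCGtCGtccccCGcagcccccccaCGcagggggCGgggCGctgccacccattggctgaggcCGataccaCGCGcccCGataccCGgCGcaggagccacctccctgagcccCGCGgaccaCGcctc
MAEL: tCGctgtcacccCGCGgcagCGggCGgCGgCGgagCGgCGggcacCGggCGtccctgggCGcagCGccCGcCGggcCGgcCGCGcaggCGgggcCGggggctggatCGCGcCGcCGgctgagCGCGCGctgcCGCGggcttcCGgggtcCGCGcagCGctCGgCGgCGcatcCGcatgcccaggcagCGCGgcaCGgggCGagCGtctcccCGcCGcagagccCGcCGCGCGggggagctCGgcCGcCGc
MGST1: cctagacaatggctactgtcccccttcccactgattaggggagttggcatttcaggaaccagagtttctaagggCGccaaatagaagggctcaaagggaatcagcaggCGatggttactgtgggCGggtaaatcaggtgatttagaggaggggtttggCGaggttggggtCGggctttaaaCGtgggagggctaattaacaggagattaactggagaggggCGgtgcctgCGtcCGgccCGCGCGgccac

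The 6 promoters differ widely in the sites a demethylating agent could act on. SSX1 has 3 CpGs in its 250 bases, GAGE12G 8, MGST1 12, XAGE1B 14, DAZL 28 and MAEL 51. Methylation itself was not measured. A count over the whole group is void, because a promoter was found for only 75.3% of the 97 genes newly above background. Over genes with a promoter in the table, counted in 300 bases around the start, the median was 27 CpGs for the genes above background on both arrays and higher (82.2% found), 26.5 for those lower (80.4%) and 27 for all genes measured (84.2%).

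The highest gene with no link to the germ line was MGST1, a membrane-bound glutathione transferase that detoxifies lipid peroxides. It stood at 5.96 untreated and 14.04 with OR21 (at least 6.58), and at 5.53 and 14.55 on the EPZ and combination arrays. Of the 34 glutathione and redox enzymes on the array, 1 other was higher by 1 or more, the quinone reductase NQO1, at 7.63 and 9.87 (2.23). The iron storage subunit FTL, the ferritin light chain, was higher by 2.45 (10.93 and 13.37). The 7 metallothioneins above background on both arrays had differences from 0.38 to 0.93, with none past 1.

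Several list members that were silent in MT-1 and active in MT-2 came on as well. The galectin LGALS1 stood at 5.38 untreated, 11.28 with OR21 (at least 3.82) and 14.90 in untreated MT-2. The calcium-binding protein S100A11 stood at 5.20 and 10.88 (at least 3.43) and 14.01 in MT-2. Glutamine synthetase, GLUL, stood at 4.57 and 10.31 (at least 2.85) and 11.72 in MT-2, and the membrane protein EMP3 at 5.98 and 9.38 (at least 1.92) and 15.25 in MT-2. In these 4 the OR21 level stayed below that of untreated MT-2. It did not in GALM (5.25 and 11.40, with 9.19 in MT-2) or HEBP2 (5.25 and 9.15, with 8.27), which are in no list and were picked after their values were seen.

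Over all genes not above background on the MT-1 EPZ array, 631 stood above background in untreated MT-2, and 20 of them (3.17%) were higher by 1 or more with OR21. Of the 8940 above background in neither line, 61 (0.682%) were. Genes active in MT-2 were thus a larger share of the genes that came on than of all genes not above background, while most of those that came on were not above background in MT-2 either. For genes above background on both MT-1 arrays, the EPZ array stood for the MT-1 level. Of 129 higher genes, 36 (27.9%) were higher by 1 or more in untreated MT-2 than in MT-1, against 6.90% of all such genes. A larger number, 44 (34.1%), were lower by 1 or more in untreated MT-2, close to the 32.6% of all such genes. Of 296 lower genes, 169 (57.1%) were lower by 1 or more in untreated MT-2, against 32.6%, and 8 (2.70%) were higher, against 6.90%. Level moves with these shares, as the plot by level shows, and its part was not tested.

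Among genes expressed before treatment, the largest positive difference was that of TUBA8, an alpha-tubulin of restricted expression, which stood at 7.59 untreated and 12.58 with OR21 (4.99). The combination array was lower than the OR21 array, at 10.80, against 7.97 with EPZ-6438. In MT-2 it stood at 10.28 untreated and 9.42 with OR21. Of the 19 tubulins on the array, TUBB2A was the only other one past 1 (1.11).

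Single histone genes came next, against the direction of the histone list. H4C5, a replication-dependent histone H4 gene, stood at 9.44 and 14.12 (4.68) and the linker histone H1-5 at 8.17 and 12.45 (4.28). H1-1 (1.85), the testis histones H1-6 (at least 1.58) and H2BC1 (1.07) were higher too. H2BC26 was lower, at 11.63 and 9.09 (-2.54), and H2BC13 and H3C10 each had a difference of -1.01. Of the 53 histone genes measured 42 had a value below 0, and their median was -0.31 against -0.12 over all 8212 genes measured. Histone genes of a cluster are close copies, so a level cannot always be assigned to 1 of them.

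The other named genes higher on both arrays had varied roles. ID2, an inhibitor of basic helix-loop-helix factors, stood at 8.20 and 11.48 (3.28), and the creatine transporter SLC6A8 at 9.57 and 12.66 (3.09). ZNF860, a zinc finger gene, differed by 2.67. The epithelial and adhesion genes SFN (14-3-3 sigma, 8.13 and 11.17, 3.04), CDH2 (N-cadherin, 7.82 and 10.44, 2.62) and KRT8 (keratin 8, 7.77 and 10.02, 2.25) were higher, as was the tight junction protein TJP1 (1.42). Of 47 keratins and epithelial genes on the array, 37 were not measured, and the defining epithelial markers EPCAM, CDH1, KRT18 and KRT19 were among those not above background.

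**Figure D3:**
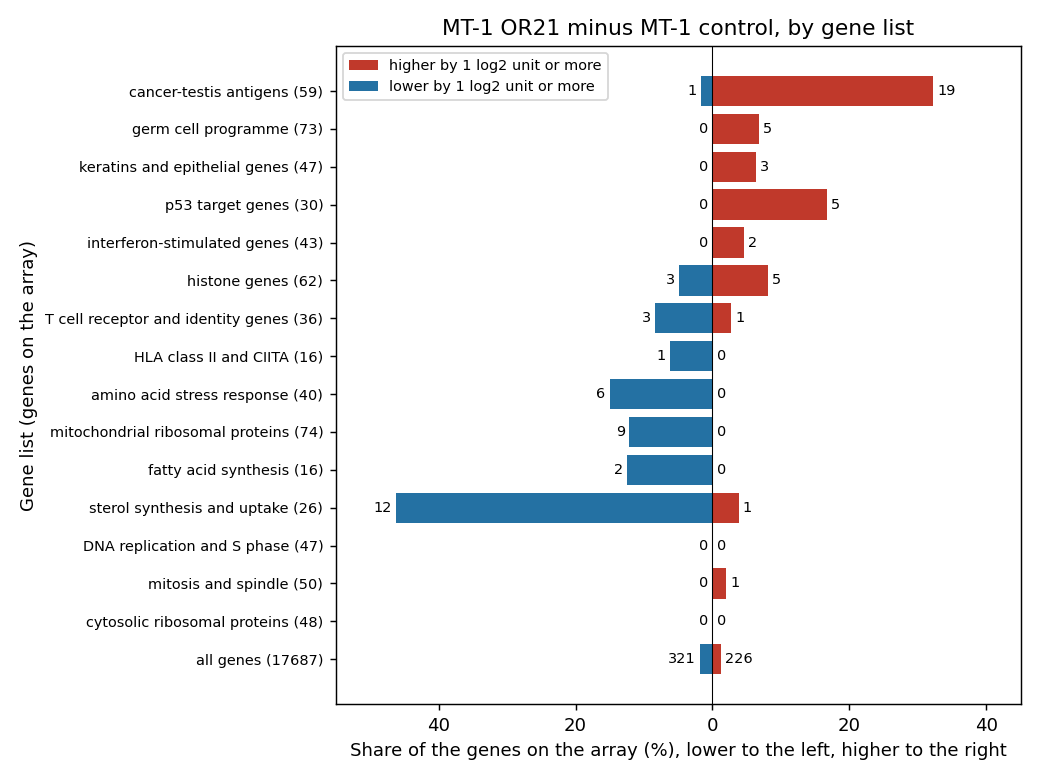
Bars give the share of each list's genes on the array that were higher (red, right) or lower (blue, left) by 1 log2 unit or more in MT-1 with OR21, with the number of genes at the end of each bar and the genes on the array in parentheses. Cancer-testis antigens reach 19 of 59 higher and sterol genes 12 of 26 lower, while all genes give 226 higher and 321 lower of 17687.

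Among targets of p53, the DNA damage transcription factor, all those past 1 were higher. Of 30 on the array 21 were measured, 5 were higher by 1 or more and 0 lower, and the median was 0.04. Over all probe sets measured, 2.75% were higher and 3.91% lower. MDM2, which ubiquitinates p53, stood at 11.81 and 13.82 (2.01), TIGAR, a regulator of glycolysis, at 7.64 and 9.12 (1.48), PLK2 at 10.27 and 11.51 (1.23) and the BH3-only protein PMAIP1 (NOXA) at 11.39 and 12.58 (1.19). SFN is the fifth. CDKN1A stayed below background, at 4.33 untreated and 6.99 with OR21, and stood at 4.70 and 9.46 on the EPZ and combination arrays. In MT-2 at 100 nM all 5 had values above 0, from at least 0.44 for PLK2 to at least 1.57 for SFN.

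Interferon-stimulated genes, the read-out of a response to virus-like RNA, mostly had no signal above background or stayed within 1. Of 43 on the array 25 were not measured, among them IFIT1, IFIT3, MX1, OAS1, OAS2, ISG15 and IFI44L. The negative regulator USP18 (9.90 and 11.08, 1.18) and EPSTI1 (8.12 and 9.15, 1.03) were the 2 higher, 0 were lower and the median of the 18 measured was 0.06. The RNA sensor IFIH1 stood at 9.79 and 9.19. The median was -0.13 with each array centred on its median, so its sign turned with the scaling.

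Among 34 genes on the array that are reported silenced in leukaemic T cells, 12 were measured. Of these, 3 were higher by 1 or more and 0 lower, where 2.75% of all probe sets measured were higher. All 3 already stood above background untreated, so none of them was a silent gene that came on. They were the quiescence factor KLF2 (8.15 and 9.61, 1.45), the repressor PRDM1 (BLIMP-1, 10.83 and 12.10, 1.27) and the death-associated kinase DAPK1 (8.10 and 9.32, 1.23). DUSP5 (7.07 and 8.39, at least 0.93) and LAIR2 (7.07 and 7.92, at least 0.46) came above background with bounds under 1. CDKN1A (4.33 and 6.99) stayed below it. Of 24 imprinted genes 11 were measured. FAM50B, which is expressed from the paternal copy, came above background (5.64 and 9.87, at least 2.41) and PEG10 was lower (-1.07). INPP5F (at least 0.86), SGCE (at least 0.46) and NNAT (at least 0.28) also came above background, with bounds under 1. The developmental factor SOX2 was higher by at least 1.01 (5.82 and 8.47), the only one of 129 HOX and developmental factors past 1, and 114 of these were not measured. With centring, cyclic loess or quantile normalization it was no longer past 1.

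Genes that mark T cell function moved in both directions. The adaptor LAT was higher by 1.96 (8.61 and 10.57). The costimulatory receptor CD28 (12.80 and 11.42, -1.38), the kinase ZAP70 (10.37 and 9.20, -1.17) and the receptor zeta chain CD247 (10.89 and 9.80, -1.09) were lower, so 1 of the 16 measured members of the list was higher and 3 lower, around a median of -0.03. Of the genes of the ATL phenotype, the chemokine receptor CCR8 stood at 13.22 and 11.87 (-1.36), the oncogene MYC at 14.54 and 13.35 (-1.19) and the inhibitory receptor TIGIT at 9.23 and 7.26, below background (-1.94 or lower). No member of that list was higher by 1 or more, and 14 were measured.

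Lineage genes of other blood cells came on singly. The B cell kinase BLK stood at 6.70 untreated and 11.08 with OR21 (at least 3.62), while MS4A1, CD79A, PAX5 and EBF1 did not stand above background. Histidine decarboxylase, HDC, made by mast cells and basophils, stood at 6.19 and 10.37 (at least 2.92). The NK receptor gene KLRC1 stood at 12.02 and 10.45 (-1.57). In a bulk sample, fewer cells of a type and less RNA per cell cannot be told apart.

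Signalling genes gave values past 1 in some lists and none in others. Over all probe sets measured, 2.75% were higher and 3.91% lower by 1 or more. Among NF-kappaB components and targets, the feedback deubiquitinase TNFAIP3 (9.95 and 11.60, 1.66) and TRAF1 (8.25 and 9.69, 1.44) were higher, and CXCL8 (-1.09) and NFKBIE (-1.01 or lower) were lower, of 22 measured. Of 13 immediate early genes measured, KLF2, KLF10 (1.35) and EGR1 (1.09) were higher and MYC was lower. Also higher was the ERK phosphatase DUSP4 (1.34). In the BCL2 family the caspase-8 inhibitor CFLAR (13.49 and 14.89, 1.40) and PMAIP1 were higher and 0 of 16 lower. All 12 TNF ligands and receptors and all 3 cytokines measured stayed within 1.

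The machinery of DNA methylation and of cell division was close to level. DNMT1, the maintenance methyltransferase, stood at 12.37 and 12.40, DNMT3A at 8.61 and 8.78 and UHRF1, which guides DNMT1 to replicated DNA, at 12.12 and 12.71, and the cytidine deaminase APOBEC3B was the 1 of 22 measured members past 1 (7.65 and 9.24, 1.59). None of 46 replication and S phase genes was past 1 in either direction (median -0.05), and 1 of 50 mitosis genes was, CKAP2 (1.02). None of 10 measured PRC2 components and H3K27 demethylases was past 1. RB1, which holds back entry into S phase, stood at 9.92 and 8.60 (-1.32), but at 9.97 and 10.02 on the arrays with EPZ-6438.

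Nucleoside uptake and dNTP genes gave 2 lower members of 22 measured. The equilibrative nucleoside transporter SLC29A2 stood at 10.52 and 8.26 (-2.26) and the nucleotidase NT5C at 10.27 and 9.09 (-1.17). The main transporter SLC29A1 (12.04 and 11.68), deoxycytidine kinase DCK (10.33 and 10.45) and SAMHD1, which hydrolyses dNTPs (10.85 and 10.23), stayed within 1.

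The clearest group among the lower genes was sterol synthesis. Cells make cholesterol from acetyl-CoA through mevalonate, squalene and lanosterol, and the factor SREBF2 switches these genes on together when sterols are low. Of 26 genes on the array 25 were measured, 12 were lower by 1 or more, 1 was higher, and 22 had values below 0. Their median was -0.98, against -0.12 over all genes measured.

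At the entry of the pathway, ACAT2, which joins acetyl-CoA units, stood at 14.61 untreated and 11.83 with OR21 (-2.79), while HMGCS1 stood at 10.75 and 10.25. In the mevalonate steps MVK (9.18 and 8.35) and PMVK (10.25 and 9.27) stayed within 1, MVD stood at 9.61 and 7.56 (-2.05), IDI1 at 12.87 and 11.74 (-1.12) and FDPS had a difference of -1.29. SQLE, which makes the epoxide of squalene, was within 1 (12.10 and 11.61), and LSS, which closes the ring to lanosterol, stood at 10.92 and 9.39 (-1.53).

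Past lanosterol, the list split. CYP51A1, the lanosterol demethylase, went the other way, at 8.44 untreated and 10.56 with OR21 (2.12). Of the enzymes after it, TM7SF2 (at least 0.42), LBR (0.20) and SC5D (-0.83) stayed within 1, and 5 were lower: MSMO1 (15.61 and 14.59, -1.03), NSDHL (12.03 and 10.44, -1.59), HSD17B7 (12.31 and 10.58, -1.73), EBP (14.52 and 12.82, -1.70) and DHCR7, the last step to cholesterol, 14.50 and 11.68 (-2.82), the most negative value of any gene above background on both arrays. The regulators INSIG1 (13.53 and 11.71, -1.82) and SREBF2 (11.38 and 10.14, -1.24) were lower as well, and SREBF1 (9.79 and 9.71) and SCAP (10.78 and 10.50) were within 1.

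**Figure D4:**
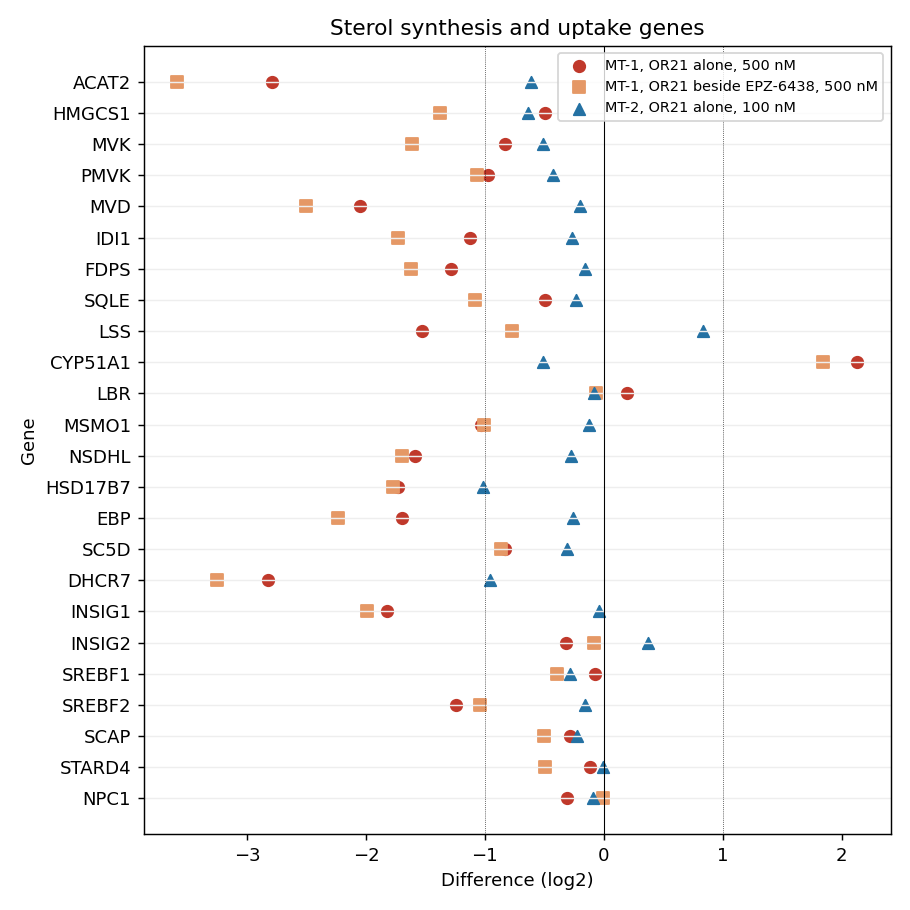
Differences (log2) of the 24 sterol genes above background on both the MT-1 control and MT-1 OR21 arrays, in pathway order from the top, for OR21 alone in MT-1 (circles), OR21 beside EPZ-6438 in MT-1 (squares) and OR21 at its lower dose in MT-2 (triangles); the square of MVD is a bound. In MT-1 nearly all lie left of 0, with CYP51A1 at 2.12 the exception past 1.

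The fatty acid branch was lower to a smaller extent. SCD, which makes monounsaturated fatty acids, stood at 12.28 and 10.05 (-2.24) and fatty acid synthase, FASN, at 13.70 and 12.66 (-1.03). ACACA (-1.0) and ACLY (-0.93) fell just short of the count. The median of the 9 measured was -0.84. The sterol count held at 12 lower with cyclic loess and quantile normalization and was 13 with centring, while the fatty acid count was 1, 1 and 5.

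Promoters of the sterol genes that were lower were searched for the CCAAT box on both strands, since sterol-regulated promoters are known to carry it. NSDHL and EBP are shown as the ones with the clearest repeats, with CCAAT or its reverse complement ATTGG in capitals, in the 250 bases before the start on GRCh38.p14, at chrX:152830813-152831062 (plus) and chrX:48521558-48521807 (plus).
NSDHL: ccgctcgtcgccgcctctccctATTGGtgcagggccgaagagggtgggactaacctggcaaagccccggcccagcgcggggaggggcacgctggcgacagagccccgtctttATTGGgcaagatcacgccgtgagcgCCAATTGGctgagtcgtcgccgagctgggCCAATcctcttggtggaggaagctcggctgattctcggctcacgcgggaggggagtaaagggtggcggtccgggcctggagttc
EBP: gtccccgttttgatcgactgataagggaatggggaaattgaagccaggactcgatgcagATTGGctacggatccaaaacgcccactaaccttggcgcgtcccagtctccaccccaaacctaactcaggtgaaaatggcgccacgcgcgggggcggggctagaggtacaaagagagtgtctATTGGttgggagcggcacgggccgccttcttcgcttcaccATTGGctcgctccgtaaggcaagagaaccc

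NSDHL carries 5 such boxes, with a CCAAT and an ATTGG overlapping at 1 place, and EBP 3. In the full windows of 300 bases, CCAAT was found in 10 of the 11 lower sterol genes that had a promoter in the table (90.9%) and in 5 of 12 other measured members (41.7%). It was found in 38.4% of all genes measured, in 38.4% of all lower genes and in 35.7% of all promoters in the table. The sterol element TCACNCCAC, searched on both strands, was found in 1 of the 11, SREBF2, against 1.15% of all promoters. These genes were chosen by their values, so the shares are a description.

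Lower genes outside lipid synthesis included some that work in the mitochondrion. Over all probe sets measured, 3.91% were lower by 1 or more. Of 72 mitochondrial ribosomal proteins measured 9 were lower by 1 or more, 0 higher, and 65 had values below 0, with a median of -0.51. The largest were MRPL58 (10.12 and 8.40, -1.72) and MRPS34 (12.88 and 11.27, -1.61). Of 13 mitochondrial tRNA synthetases 3 were lower, LARS2 (9.08 and 7.02, -1.78 or lower), FARS2 (-1.38) and CARS2 (-1.24). Of 47 cytosolic ribosomal proteins none was past 1, with a median of -0.07. These 3 lists were written after the values were seen.

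The count of mitochondrial ribosomal proteins past 1 moved with the scaling, and the median kept its sign. With cyclic loess 4, with quantile normalization 5 and with centring 13 of the 72 mitochondrial ribosomal proteins were lower by 1 or more, and the median ran from -0.68 to -0.41. The respiratory chain list gave 3 of 65 lower, NDUFS7 (-1.49 or lower), NDUFA7 (-1.31) and NDUFA2 (-1.02), around a median of -0.34. That share was near the 3.91% of all probe sets measured. Ribosome biogenesis gave 2 of 32, IFRD2 (12.42 and 10.32, -2.10) and POLR1B (-1.16).

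The amino acid stress response, genes that ATF4 switches on when amino acids run short, had 6 of 38 measured members lower and none higher. They were PCK2 (9.03 and 7.41, -1.63), STC2 (-1.31), the pseudokinase TRIB3 (9.81 and 8.51, -1.29), CHAC1 (-1.18), the alanyl-tRNA synthetase AARS1 (14.32 and 13.17, -1.15) and CTH (-1.10 or lower). The median was -0.44, and 3.91% of all probe sets measured were lower by 1 or more. The count of lower members was 11 with each array centred on its median and 1 of 30 with background at the 99th percentile of the negative controls. Over all named probe sets these settings gave 589 and 136 lower, against 321 as deposited. Of the ER chaperone list 1 of 25 was lower, MANF (-1.15).

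Antigen presentation genes gave few values past 1. Of 18 class I and peptide loading genes 16 had values below 0 and 1 was past 1, the peptide-loading factor TAPBP (11.56 and 10.08, -1.48). Of 13 class II genes and CIITA 11 had values below 0, with HLA-DQA1 past 1 (11.26 and 9.94, -1.32). The medians were -0.33 and -0.52, where all genes measured had a median of -0.12 and 4957 of 8212 values below 0. No member of either list was higher by 1 or more.

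The remaining named lower genes had no list in common. MANEAL, a Golgi mannosidase-like protein, stood at 12.42 and 9.86 (-2.56), GMDS, which makes GDP-fucose, at 10.25 and 7.81 (-2.44), and BTBD2 at 11.68 and 9.45 (-2.22). TBC1D30 (-2.06) and FAM136A (-1.94) followed. Below background with OR21 were PRKAR1B, a regulatory subunit of protein kinase A (9.95 and 7.13, -2.65 or lower), the pentose phosphate enzyme PGLS (-1.85 or lower), SEPTIN3 (-1.76 or lower) and CHPF (-1.66 or lower). Of 40 actin, adhesion and motility genes measured, ICAM2 (11.31 and 9.55, -1.77), ICAM3 (-1.09) and CD151 (-1.0) were lower, and LGALS1, EMP3 and the tropomyosin TPM2 (at least 1.78) were higher, around a median of 0.13.

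The combination array minus the EPZ array gives OR21 at the same dose beside EPZ-6438, and it shares no array with the main pair. It is not a replicate, since EPZ-6438 was present on both sides. Of 8746 probe sets measured there, 623 (7.12%) were higher and 563 (6.44%) lower by 1 or more. Of the 226 probe sets higher with OR21 alone, 187 were higher in this pair too, 82.7% of the 226 and 30.0% of the 623. Of the 321 lower, 191 were lower in it, 59.5% of the 321 and 33.9% of the 563.

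Signs matched in nearly all of them. Of the 226 higher, 221 had a value above 0 beside EPZ-6438 and 0 were lower by 1 or more, and of the 321 lower, 316 had a value below 0 and 1, CXCL8, was higher by 1 or more. The median of the 226 was 1.48 with OR21 alone and 2.05 beside EPZ-6438, and that of the 321 was -1.19 and -1.13. Across the 7416 probe sets above background on all 4 arrays, the differences of the pairs correlated at r = 0.73 (rho = 0.68), a description over probe sets that share arrays, with no p.

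**Figure D5:**
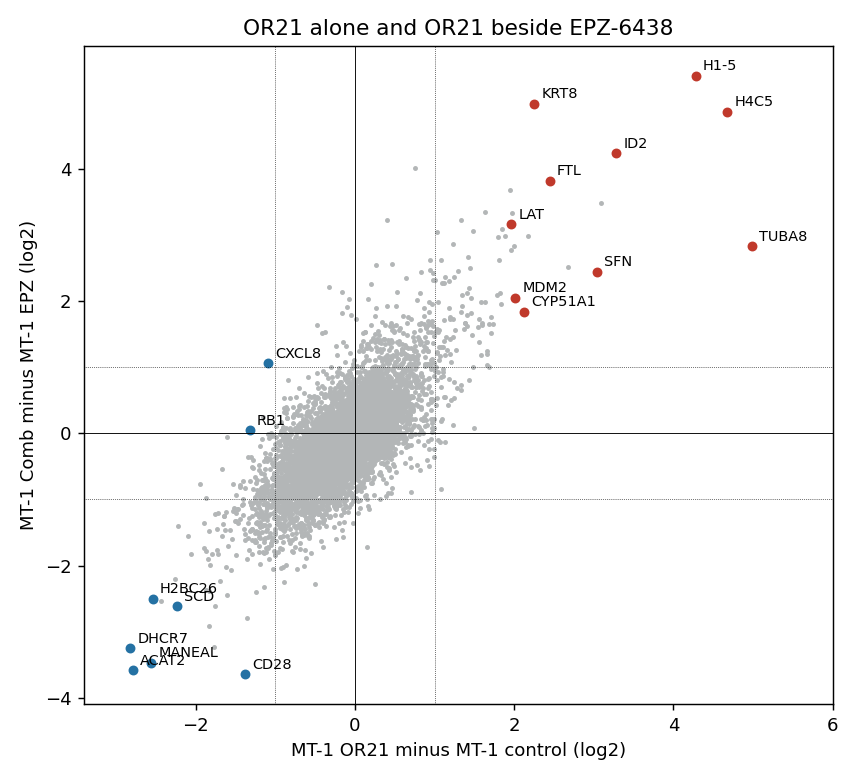
Each point is a gene above background on all 4 MT-1 arrays, with its difference for OR21 alone (horizontal) and for OR21 beside EPZ-6438 (vertical), both log2, and dotted lines at 1 and -1. H4C5 and H1-5 lie past 4 on both axes and DHCR7 and ACAT2 past -2, while TUBA8 is larger with OR21 alone (4.99 against 2.83) and CD28 is more negative beside EPZ-6438 (-3.64 against -1.38).

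Some members had clearly different sizes in the 2 pairs. S100A11 was higher by at least 3.43 with OR21 alone and at least 7.16 beside EPZ-6438, GLUL by at least 2.85 and at least 6.61, and KRT8 by 2.25 and 4.98. CD28 was lower by more beside EPZ-6438 (-1.38 and -3.64), as were CCR8 (-1.36 and -2.79) and ICAM2 (-1.77 and -3.23). With 1 array a side these differences between the pairs were not tested. Of the sterol genes, DHCR7 gave -2.82 and -3.25, ACAT2 -2.79 and -3.58 and CYP51A1 2.12 and 1.84.

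In MT-2, at 100 nM, 77 of 7341 probe sets measured were higher (1.05%) and 101 lower (1.38%) by 1 or more. Of the 226 higher in MT-1, 130 were measured in MT-2, where 8 were higher, 0 lower and 71 above 0. Of the 321 lower, 215 were measured, where 14 were lower, 3 higher and 169 below 0. SSX2B was higher there by at least 1.40 (5.50 and 9.20) and SSX1 by at least 0.30 (5.58 and 8.10), and MGST1 and the GAGE genes named above stayed below background. DHCR7 stood at 13.35 and 12.39 in MT-2 (-0.95), HSD17B7 at 11.66 and 10.65 (-1.02) and CYP51A1 at 13.16 and 12.65. Across 6131 probe sets above background on all 4 arrays r was 0.20. Dose and line differ together here and cannot be told apart.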

How the data were processed

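Total RNA of 8 cell cultures, 1 per line and treatment, was hybridised to 1-colour Affymetrix arrays. The authors deposited 1 table of log2 values made with RMA, per the submitters' processing notes. The RMA version, annotation release and any later rescaling are not given there, and base 2 is taken from RMA. Gene symbols came from the platform annotation table: 17709 of 21448 transcript probe sets had 1 symbol, 3739 had none, and 2903 control entries were left out. No library depth exists for arrays, and their number limits the precision.

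Differences were computed in Python 3.11.15 (pandas 2.3.3), with no test, as 1 array stood in each group. Probe sets above background on 1 array only were given as bounds, and for genes with several probe sets the one with the highest mean was used. Genes were named by rank: the 12 largest newly above background, 10 higher and 12 lower on both arrays, 6 lost, and list members past 1 log2 unit, less 1 gene that is not reported here. Cyclic loess and quantile normalization used limma 3.58.1 (R 4.3.3). The counting was checked on simulated data. The comparison, the 46 gene lists and the rule for naming were chosen with earlier results of these data known, and 5 further lists were written after the values were seen. Promoter sequences are RefSeq's on GRCh38.p14, found for 14250 of 17687 genes (80.6%).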

Additional observations from a re-analysis of the deposited data

Results flagged for a closer look

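Some genes had opposite signs in the cell lines under OR21, or with OR21 alone and beside EPZ-6438, by at least 0.5 log2 units on each side. With 1 array a side these differences were not tested, and dose differs between the lines. BLK had a bound of at least 3.62 in MT-1 and a value of -0.75 in MT-2, where it stood at 11.09 before treatment. TUBA8 was 4.99 in MT-1 and -0.86 in MT-2. CYP51A1 was 2.12 in MT-1 and -0.51 in MT-2. LSS was -1.53 in MT-1 and 0.83 in MT-2. STC2 was -1.31 in MT-1 and 1.45 in MT-2. CXCL8 was -1.09 with OR21 alone and 1.06 beside EPZ-6438, with 9.63 on the untreated and 7.90 on the EPZ array.

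The probe sets with no gene symbol held signal outside the main measurement. Of 1222 measured, 47 were higher by 1 log2 unit or more in MT-1 with OR21 and 36 lower. Of the 8218 named probe sets measured, 226 (2.75%) were higher and 321 (3.91%) lower. The largest difference among the unnamed probe sets was that of TC0X00011368.hg.1. This probe set stood at 6.28 untreated and 14.71 with OR21, at least 7.25 higher, above every named gene. It stood at 6.40 on the EPZ array and 15.21 on the combination array.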

How the results depend on the processing

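No paired analysis was possible because each group has 1 array. As deposited, 226 probe sets were higher and 321 lower by 1 log2 unit or more. The lower count was 589 with each array centred on its median and 211 with quantile normalization, where both arrays also take the same distribution. With background at the 99th percentile of the negative controls the counts were 134 and 136, and at the 50th percentile 608 were higher. Plain differences of all named probe sets, with no background, gave 668 higher. Only probe sets above background on both arrays gave 129 higher. A threshold of 2 log2 units gave 64 higher and 12 lower, and one of 0.5 gave 800 and 1660. The other alternatives stayed within 1.5 times, and the threshold and background counts differ by construction.

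Of the 226 higher probe sets 221 were higher by 1 or more with cyclic loess, 220 with quantile normalization and 171 with centring, and of the 321 lower ones 227, 211 and 321. Over 148 genes past 1 that the lists or the naming rule hold, none changed sign under any alternative run, and 94 values moved by over 0.43 log2 units, the standard deviation of the positive controls' differences, against 619 that did not. Over the 51 lists, no median past 0.5 in size turned sign, while smaller ones such as that of the interferon list did, and 40 values moved by 0.25 or more against 264 that did not. A level of 1 array under its background is a bound only.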

Other observations

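Genes outside the lists, chosen after their values were seen, also came above background in MT-1 with OR21. They include the tyrosine kinase SYK (at least 3.15), the germ cell cyclin CCNA1 (at least 3.05), the chemoattractant receptor GPR15 (at least 2.90), the complement inhibitor CD59 (at least 2.90), the ubiquitin hydrolase UCHL1 (at least 2.79) and the Notch target HES1 (at least 1.66). Among genes expressed on both arrays, the autophagy receptor SQSTM1 was higher by 1.81, the chaperone HSPA1A by 2.18, the lamin LMNA by 1.96 and the ubiquitin ligase FBXO32 by 2.0. TMEM97, the sigma-2 receptor, was lower (-1.87), as were the oxysterol hydroxylase CYP7B1 (-1.89), the retinoic acid hydroxylase CYP26A1 (-1.87) and the aquaglyceroporin AQP3 (-1.83).

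Of the 612 negative-control probe sets, 27 were higher and 51 lower by 1 or more. The largest plain difference among them, OR21 array minus control array, was 8.06, so a single probe set can move that far. Of the 22 above background on both arrays, 4 were higher and 1 lower.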
